A study of Mus musculus with 12 samples.

Results

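Rn7sk, Rmrp, Rpph1 and Rprl3 are 4 of the 39179 genes counted in 12 RNA-seq libraries of mouse embryonic stem (ES) cells. They were picked by symbol, because their level was lower in the reporter-positive cells than in the reporter-negative cells of the study, and all 4 were found in the deposited tables. The libraries were made from total RNA after removal of ribosomal RNA, with a stranded kit.

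The BRE-positive group has 3 libraries and the BRE-negative group has 3. These cells carry BRE-GFP, a reporter in which a BMP response element drives GFP, on a mixed CBA, C57Bl/6 background. They were grown in FCS and Lif on feeders and sorted by flow cytometry for SSEA1 and GFP, and the 3 pairs were collected at 3 different times. The KO group has 4 libraries of Smad1/5 -/- cells and the FL group has 2 libraries of Smad1/5 fl/fl cells, which keep the floxed alleles of these BMP signal transducers. Both come from a mixed CD-1, 129/Ola, C57Bl/6 background and were grown unsorted, as far as the labels say, in 2i and Lif on gelatin. 2 parental lines each gave 1 FL and 2 KO libraries, and the labels do not say which library came from which line or whether the KO cells were clones.

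Rn7sk is the 7SK RNA, a nuclear scaffold transcribed by RNA polymerase III. With HEXIM proteins it holds the kinase P-TEFb (Cdk9 and a T-type cyclin) inactive, while Larp7 and the capping enzyme Mepce keep the RNA stable. Rpph1 is the RNA of RNase P, the enzyme that removes the 5′ leader of precursor tRNAs, and Rmrp is the RNA of the related RNase MRP, which takes part in the maturation of ribosomal RNA. The RNA components of RNase P and RNase MRP bind a largely shared set of proteins. Rprl3 is annotated as an RNase P RNA-like gene, and whether it has a function of its own is not known here.

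The sequences below are the annotated transcripts of GENCODE M21 on GRCm38. All 4 genes lie on the minus strand. Rn7sk (ENSMUSG00000065037) is at chr9:78175303-78175633 and 331 bases long, Rmrp (ENSMUSG00000088088) at chr4:43492788-43493058 and 271 bases, Rpph1 (ENSMUSG00000092837) at chr14:50807449-50807767 and 319 bases, and Rprl3 (ENSMUSG00000088025) at chr8:3803069-3803358 and 290 bases. Bases 1 to 100 of Rn7sk are shown because they hold all 3 GATC motifs of the RNA, in capitals, and GATC is part of the element that HEXIM binds in the 5′ hairpin of human 7SK.
Rn7sk: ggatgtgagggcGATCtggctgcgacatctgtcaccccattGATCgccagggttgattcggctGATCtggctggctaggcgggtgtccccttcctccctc

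Rmrp is shown whole because 124 of its 271 bases, in capitals, lie under an exon of Ccdc107 on the other strand, and no source used here gives the strand setting of the authors' counting.
Rmrp: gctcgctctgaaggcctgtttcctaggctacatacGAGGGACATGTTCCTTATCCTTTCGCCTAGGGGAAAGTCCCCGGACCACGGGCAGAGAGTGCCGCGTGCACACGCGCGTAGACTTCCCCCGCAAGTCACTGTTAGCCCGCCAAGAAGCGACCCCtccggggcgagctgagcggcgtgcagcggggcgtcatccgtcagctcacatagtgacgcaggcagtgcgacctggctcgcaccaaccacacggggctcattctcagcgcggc

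Rpph1 bases 1 to 239 and Rprl3 bases 1 to 218 are shown because reads from these similar RNAs could be split between both genes. Capitals mark the bases that differ from the other RNA or have no partner in it.
Rpph1: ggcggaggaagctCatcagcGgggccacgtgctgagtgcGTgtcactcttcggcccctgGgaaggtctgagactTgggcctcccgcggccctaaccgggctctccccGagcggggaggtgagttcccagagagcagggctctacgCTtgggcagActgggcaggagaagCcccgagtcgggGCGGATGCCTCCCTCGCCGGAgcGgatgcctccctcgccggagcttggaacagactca
Rprl3: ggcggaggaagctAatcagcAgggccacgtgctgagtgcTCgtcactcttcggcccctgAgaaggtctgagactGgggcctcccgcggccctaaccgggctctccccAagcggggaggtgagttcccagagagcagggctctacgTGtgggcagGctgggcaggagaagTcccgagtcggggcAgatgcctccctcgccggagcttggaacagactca

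Over this stretch 206 of 218 aligned bases were identical (94.5%), and a copy of a short repeat in Rpph1 had no partner. Over the whole alignment 246 of 279 aligned bases were identical (88.2%), and the longest run shared by both RNAs was 37 bases. Rprl3 shared 92.1% of its aligned bases with Rprl2 and 92.1% with Rprl1, the other annotated RNase P RNA-like genes. A read within a shared run cannot be assigned to 1 gene, so the Rprl3 values are uncertain in every library.

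Library totals were between 25862573 and 37319846 counts. The 4 RNAs took 0.677 to 2.57% of the counts of a library, and, because they are short, 6.47 to 20.2% of the summed TPM (a level per base of transcript, scaled to the same total in every library). The ES cell markers Pou5f1, Sox2, Nanog, Zfp42, Esrrb, Klf4, Tdgf1, Dppa5a and Fut4 were detected in every group, with a summed level of 4042 to 5125 CPM (counts scaled to the library total). The targeted genes were counted in every KO library. Smad1 had 12.3 to 17.5 CPM in KO and 18.2 to 19.0 CPM in FL libraries (-0.36 ± 0.14 on the log2 scale, SE; adjusted p = 0.187 by edgeR), and Smad5 had 25.2 to 34.5 CPM in KO and 31.5 to 33.6 CPM in FL libraries (-0.09 ± 0.13 SE, edgeR adjusted p = 0.719). The KO and FL ranges did not overlap for Smad1 and overlapped for Smad5. These counts cover each whole gene and do not check the deleted part.

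Rn7sk was among the most abundant transcripts per length, between rank 2 and rank 4 of all genes in every library. It had 59814, 22345 and 30572 TPM in BRE-positive libraries 1, 2 and 3, against 77392, 44203 and 45472 TPM in the paired BRE-negative libraries. It had 70280, 61945, 38966 and 42165 TPM in KO libraries 1 to 4, against 61971 and 65879 TPM in the FL libraries. Each BRE-positive library lay below its own partner, but BRE-positive library 1 lay above BRE-negative libraries 2 and 3, so the groups overlapped. KO library 1 lay above both FL libraries, KO library 2 was level with the lower of them, and KO libraries 3 and 4 lay well below. Group means were 37577 ± 19692 TPM (SD, n = 3) in BRE-positive, 55689 ± 18806 (n = 3) in BRE-negative, 53339 ± 15193 (n = 4) in KO and 63925 ± 2764 TPM (n = 2) in FL libraries. From the highest mean down, the order was FL, BRE-negative, KO and BRE-positive, and no neighbours in this order differed by more than the larger of their SDs.

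Rmrp was between rank 3 and rank 5 in every library. It had 34314, 9400 and 10412 TPM in the BRE-positive libraries, against 42933, 19317 and 23185 TPM in the paired BRE-negative libraries. It had 54275, 55925, 21988 and 30840 TPM in the KO libraries, against 52538 and 55271 TPM in the FL libraries. All BRE libraries lay below both FL libraries, whereas KO libraries 1 and 2 lay near or above FL and KO libraries 3 and 4 lay within the range of the BRE libraries. Means were 18042 ± 14101 TPM (SD, n = 3) in BRE-positive, 28478 ± 12667 (n = 3) in BRE-negative, 40757 ± 16965 (n = 4) in KO and 53904 ± 1932 TPM (n = 2) in FL libraries. The order from the highest mean was FL, KO, BRE-negative and BRE-positive, with each step smaller than the larger SD of the groups it joins.

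Rpph1 was between rank 2 and rank 4 in every library. It had 73258, 32774 and 43433 TPM in the BRE-positive libraries, against 81513, 61639 and 70485 TPM in the paired BRE-negative libraries. It had 48011, 50843, 31884 and 38899 TPM in the KO libraries, against 52859 and 49930 TPM in the FL libraries. All BRE-negative libraries lay above every KO and FL library, and the BRE-positive libraries overlapped the KO and FL libraries, with KO library 3 below the lowest of them. Means were 49822 ± 20985 TPM (SD, n = 3) in BRE-positive, 71212 ± 9957 (n = 3) in BRE-negative, 42409 ± 8672 (n = 4) in KO and 51394 ± 2071 TPM (n = 2) in FL libraries. BRE-negative had the highest mean, followed by FL, BRE-positive and KO. The step between BRE-negative and FL was larger than either SD, and the steps between the other neighbours were smaller than the larger SD.

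Rprl3 had 272, 156 and 184 TPM in the BRE-positive libraries, against 391, 299 and 314 TPM in the paired BRE-negative libraries. In the KO libraries it had 1.83, 1.24, 2.13 and 2.26 TPM, against 1.12 and 7.87 TPM in the FL libraries. The deposited TPM values rest on counts plus 1, and the counts behind the low values were 5, 4, 7 and 6 in KO and 3 and 29 in FL libraries. The BRE-positive and BRE-negative values did not overlap, and every BRE library lay far above every KO and FL library. Means were 204 ± 60.2 TPM (SD, n = 3) in BRE-positive, 335 ± 49.7 (n = 3) in BRE-negative, 1.87 ± 0.453 (n = 4) in KO and 4.49 ± 4.77 TPM (n = 2) in FL libraries. The order was BRE-negative, BRE-positive, FL and KO. The FL and KO means differed by less than the FL SD, and the other neighbours by more than the larger of their SDs.

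**Figure D1:**
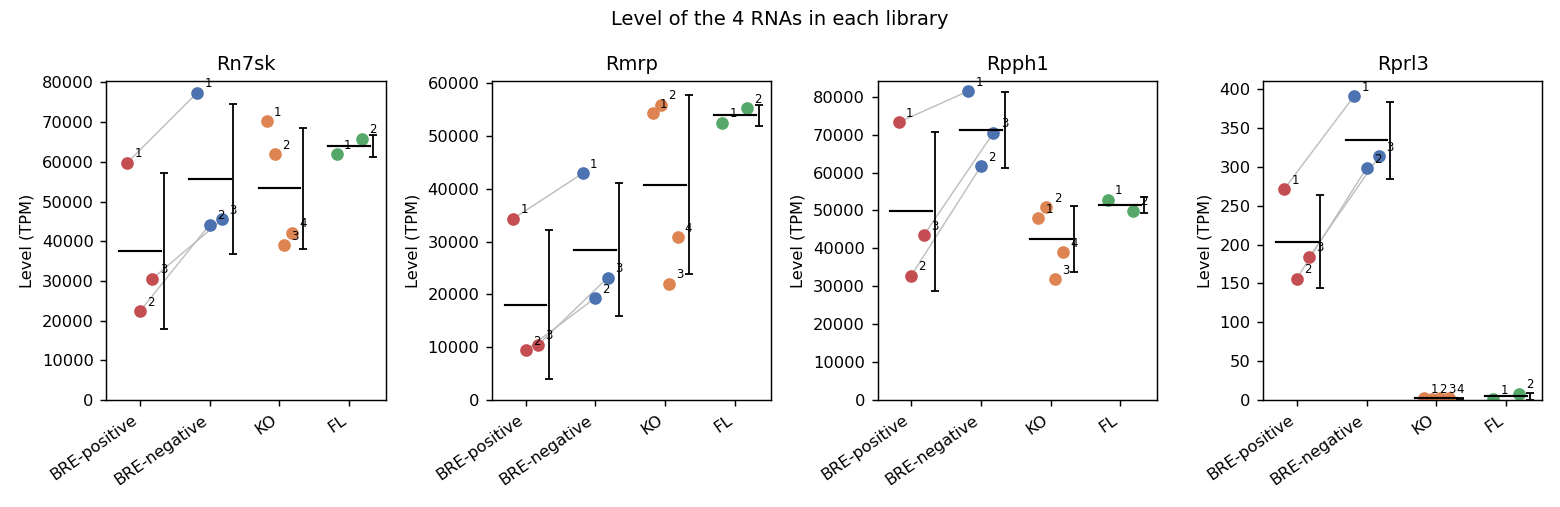
TPM (linear axis) of Rn7sk, Rmrp, Rpph1 and Rprl3 in each of the 12 libraries, by group. Numbers are replicate numbers, grey lines join the paired BRE libraries, horizontal lines are group means and error bars are SD. In all 4 panels each BRE-positive library lies below its partner, and pair 1 is the highest of the BRE pairs. Rprl3 stands at 1.12 to 7.87 TPM in the KO and FL libraries.

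The reporter comparison was the measure by which the 4 RNAs were picked, so its values are given as a description with no test. The BRE-positive libraries held 76.0, 45.4 and 60.6% of the Rn7sk level (CPM) of their BRE-negative partners in pairs 1, 2 and 3. The values were 78.6, 43.7 and 40.5% for Rmrp and 88.4, 47.7 and 55.5% for Rpph1. Rprl3 stood at 68.2, 46.9 and 52.8%. Pair 1 showed the smallest difference for each of the 4 RNAs, and pair 2 the largest for all but Rmrp, whose largest was in pair 3.

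The BRE-positive over BRE-negative log2 fold change was fitted by edgeR with the pair as a block (n = 3 pairs). It was -0.73 ± 0.10 (SE) for Rn7sk, -0.93 ± 0.13 for Rmrp, -0.68 ± 0.11 for Rpph1 and -0.82 ± 0.09 for Rprl3. These SEs understate the spread between pairs. In the same order, the SDs of the 3 pair differences in log2 CPM were 0.37, 0.52, 0.46 and 0.28. The SEs by DESeq2 were 0.21, 0.29, 0.17 and 0.12. Of 15435 genes tested in this comparison, 2.97% were called, 1.02% lower and 1.96% higher, at an adjusted p under 0.05, and the median log2 change of all genes was -0.0009. The fitted differences of the 4 RNAs thus spanned -0.93 to -0.68 on the log2 scale. Bulk RNA cannot tell fewer cells that hold an RNA from less of it per cell.

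Per TPM of Rpph1, Rmrp had 0.468, 0.287 and 0.240 TPM in the BRE-positive libraries and 0.527, 0.313 and 0.329 TPM in the BRE-negative libraries. The ratio was 1.13, 1.10, 0.690 and 0.793 in KO and 0.994 and 1.11 in FL libraries. The 6 BRE values lay below all 6 values of the Smad1/5 lines, so RNase MRP RNA was less abundant than RNase P RNA in every BRE library and close to it in the FL libraries.

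The KO over FL comparison asks whether loss of Smad1 and Smad5 goes with a change of these RNAs, and the choice of the 4 RNAs did not use it. None of the 3 RNAs that could be tested passed the edgeR threshold. Rn7sk changed by -0.21 ± 0.26 (log2, SE; by edgeR, adjusted p = 0.673), Rmrp by -0.34 ± 0.37 (adjusted p = 0.624) and Rpph1 by -0.23 ± 0.20 (adjusted p = 0.536), with 4 KO and 2 FL libraries. The unadjusted p-values were 0.441, 0.381 and 0.289. In this comparison 5.03% of 15933 genes were called, 1.85% higher and 3.18% lower, and the median log2 fold change was 0.01. The libraries come from 2 parental lines, and the fit had no block for line. Libraries of the same line entered as separate samples and may not be independent, which bears on every p-value of this comparison. The SEs reflect the split among the KO libraries described above, and Rprl3 was left out of the test by the filter on low counts. With the replicate number as a block the 3 estimates turned positive, at 0.14, 0.13 and 0.04 (by edgeR, adjusted p = 0.547, 0.529 and 0.880). KO replicates 3 and 4 have no FL library of their number, so these estimates rest on replicates 1 and 2. The labels do not say that equal numbers pair these libraries.

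The BRE over FL comparison sets the mean of both BRE groups against FL. Medium, feeders, strain, reporter and sorting differ together between these groups and cannot be told apart. Of 17112 genes 55% were called (26.3% higher, 28.7% lower). This fit had no block, so both libraries of each BRE pair entered as separate samples. Deviations from the group mean correlated within the pairs (0.702, 0.566 and 0.505). The 6 BRE libraries are thus not independent, and the p-values of this comparison may be too small. Rprl3 rose, with a log2 change of 5.93 ± 0.51 (SE; 61.2-fold, edgeR adjusted p = 8.24e-07). It was higher in 6 of 6 BRE libraries than in either FL library, and such separation was not counted over all genes. It passed the filter on low counts through the BRE libraries, and with no such filter the value was also 5.93 (adjusted p = 2.34e-11). Leaving out 1 FL library moved this value to 5.12 without FL replicate 1 and to 8.22 without FL replicate 2, whose 29 counts were most of the FL signal. Rpph1, whose aligned bases are 88.2% identical to those of Rprl3, did not pass the threshold (0.23 ± 0.30, adjusted p = 0.532). Without BRE-positive replicate 1 the Rpph1 estimate was -0.02.

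Rn7sk in BRE over FL had a log2 change of -0.45 ± 0.38 (SE; by edgeR, adjusted p = 0.325), and without BRE-positive replicate 1 it passed at -0.77 (adjusted p = 0.0347). Rmrp had -1.20 ± 0.50 (adjusted p = 0.0549), just above the threshold of 0.05. It was lower in 6 of 6 BRE libraries than in either FL library, a separation that was not counted over all genes. It passed without BRE-positive replicate 1 (-1.71, adjusted p = 0.00147), without BRE-negative replicate 1 (-1.45, adjusted p = 0.024) and without KO replicate 3 (-1.20, adjusted p = 0.0478), and ranged to -0.85 (adjusted p = 0.245) when only the BRE-negative libraries were set against FL. The feeder fibroblast markers, whose cells were in the BRE cultures alone, moved with this comparison. Their summed level was 83.4 to 211 CPM in BRE and 14.4 to 19.0 CPM in FL libraries, and 13 of 14 were called higher. None of the 14 markers was at 0 in all libraries of either group. Their part in the result was not tested.

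Rprl3 was described further against Rpph1, since both share most of their sequence. For every 1000 Rpph1 counts there were 3.37, 4.32 and 3.85 Rprl3 counts in the BRE-positive libraries, and 4.36, 4.40 and 4.05 in the BRE-negative libraries. The KO libraries had 0.0288, 0.0178, 0.0532 and 0.0452, and the FL libraries had 0.0144 and 0.139. The ratio thus ran from 3.37 to 4.40 in the BRE libraries, where each BRE-positive value lay below its partner. It was far lower in all Smad1/5 libraries, at Rpph1 levels within or near the range of the BRE libraries (32774 to 81513 TPM). The ratios of the BRE libraries and of the Smad1/5 libraries did not overlap. The strains of these lines differ by their labels, and whether this bears on the counts was not tested.

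As a share of Rprl3 and Rpph1 counts together, Rprl3 took 0.336 to 0.438% in the BRE libraries and 0.0014 to 0.0138% in the Smad1/5 libraries. The exact (Clopper-Pearson) 95% intervals reached down to 0.315% in BRE libraries and up to 0.0199% in Smad1/5 libraries, and cover counting error only. Rprl2 followed the same order at lower counts, with 34, 33 and 17 counts in BRE-positive, 56, 47 and 60 in BRE-negative, 0, 2, 0 and 0 in KO and 0 and 2 in FL libraries. Rprl1 had 2 to 7 counts in the BRE libraries and 0 or 1 in the Smad1/5 libraries, too few to test.

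**Figure D2:**
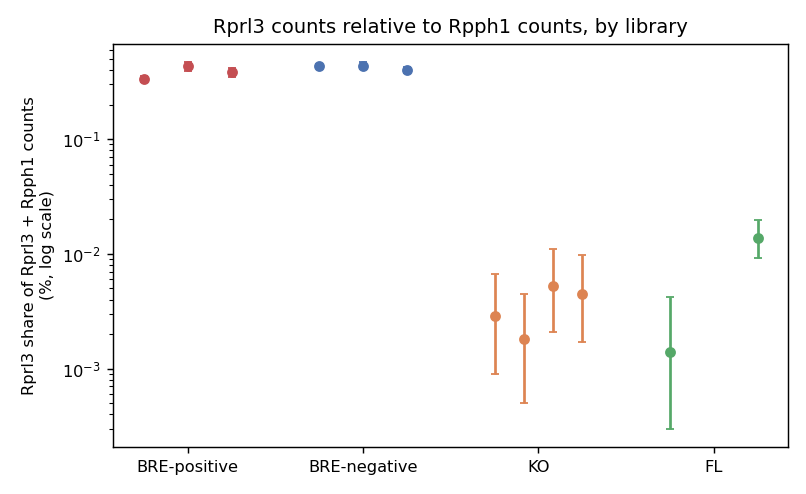
Rprl3 counts as a percentage of Rprl3 and Rpph1 counts together (log axis), 1 point per library with its exact 95% interval, by group. The 6 BRE libraries lie between 0.336 and 0.438%, and the 6 Smad1/5 libraries between 0.0014 and 0.0138%.

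The annotated neighbours of the 4 RNAs overlap them or start close by, and were set beside them. C920006O11Rik, a lincRNA on the other strand, starts 281 bases from the start of Rn7sk, and had 1.34 to 2.69 CPM in all libraries and no call in any comparison. Parp2, a poly(ADP-ribose) polymerase gene, starts 74 bases from Rpph1 on the other strand. Its log2 fold change was -0.03 (by edgeR, adjusted p = 0.783) in BRE-positive over BRE-negative, -0.04 (adjusted p = 0.745) in KO over FL and 0.82 ± 0.09 (SE; adjusted p = 9.07e-06) in BRE over FL. Parp2 therefore showed no call in the comparison by which Rpph1 was picked.

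Ccnb1ip1, on the same strand as Rpph1, shares 233 exon bases with it in GENCODE M21, and reads there cannot be told apart. It had 15.1 to 19.7 CPM in BRE-positive and 14.6 to 19.0 CPM in BRE-negative libraries, against 3431 to 10261 CPM for Rpph1, and a log2 change of 0.03 (by edgeR, adjusted p = 0.878). Its BRE over FL change was 2.51 ± 0.18 (SE; adjusted p = 1.75e-07). Ccdc107, which covers 124 bases of Rmrp from the other strand, had 6.69, 4.95 and 5.93 CPM in BRE-positive, 10.6, 6.47 and 6.05 in BRE-negative, 15.7, 17.1, 9.77 and 9.24 in KO and 15.1 and 15.8 CPM in FL libraries. It was lower in BRE than in FL libraries (-1.19 ± 0.25, adjusted p = 0.00118) and was not called in the other comparisons (-0.37 ± 0.13, adjusted p = 0.146, and -0.25 ± 0.25, adjusted p = 0.601). KO libraries 1 and 2 were high and 3 and 4 low for Ccdc107 as for Rmrp, and Ccdc107 had 1.85 to 6.44 counts per 1000 Rmrp counts over all libraries. Whether reads of 1 gene were counted for the other was not tested.

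The protein partners of these RNAs were described in BRE-positive over BRE-negative beside the 2.97% of all genes called. Of 11 RNase P and MRP proteins, edgeR called 0 (1 at an unadjusted p under 0.05, and 0 by DESeq2), and their median log2 fold change was -0.05. Pop1, the large subunit of both enzymes, had 83.1 ± 11.05 CPM in BRE-positive and 90.9 ± 12.6 CPM in BRE-negative libraries (SD, n = 3 each), and Rpp25 had 32.7 ± 8.78 CPM in BRE-positive and 34.1 ± 8.44 CPM in BRE-negative libraries. Of 16 genes of the 7SK particle and P-TEFb, 1 rose and 0 fell, and their median was 0.05.

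Of the proteins bound to 7SK, Larp7 had a log2 change of -0.20 ± 0.06 (by edgeR, adjusted p = 0.0847), Mepce -0.13 ± 0.06 (adjusted p = 0.252), Hexim1 -0.06 ± 0.05 (adjusted p = 0.602) and the kinase Cdk9 -0.15 ± 0.06 (adjusted p = 0.223), so none passed. Among 13 RNA polymerase III subunits 0 were called (2 at an unadjusted p under 0.05, and 0 by DESeq2; median -0.05), and the subunit Polr3g had -0.06 ± 0.06 (adjusted p = 0.632). Among 19 RNA polymerase III factors 1 rose and 0 fell, with a median of -0.02. It was Pou2f1, the octamer-binding factor that also acts at small nuclear RNA promoters (0.33 ± 0.05, edgeR adjusted p = 0.00559). Without pair 1 these counts were 2 higher and 2 lower among the 7SK genes and 2 higher and 2 lower among the factors, and 0 among the other 2 lists. Without pair 2, and likewise without pair 3, the 7SK genes had 0 calls and the factors 1. Of all genes, 2225 of 15441 were called without pair 1, 397 of 15517 without pair 2 and 200 of 15581 without pair 3.

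The same lists were set beside the 5.03% of all genes called in KO over FL. The RNase P and MRP proteins had 0 of 11 called (1 at an unadjusted p under 0.05, and 0 by DESeq2), with Pop1 at 0.06 ± 0.06 and Rpp25 at -0.08 ± 0.08 on the log2 scale (SE). In the 7SK and P-TEFb list 2 of 16 rose and 0 fell, with a median of 0.15. They were Aff1, a scaffold of the super elongation complex (118 ± 5.58 CPM in KO and 78.7 ± 8.37 CPM in FL libraries, log2 fold change 0.59, edgeR adjusted p = 0.014), and Ddx21, an RNA helicase that releases P-TEFb from 7SK (592 ± 21.3 CPM in KO and 486 ± 1.02 CPM in FL libraries, 0.29, adjusted p = 0.0436). Hexim1 had 0.40 ± 0.10 (adjusted p = 0.0731), Cdk9 0.23 ± 0.08 (adjusted p = 0.122), Mepce 0.15 ± 0.08 (adjusted p = 0.328) and Larp7 0.07 ± 0.07 (adjusted p = 0.554). The polymerase III subunits and factors had 0 of 13 and 0 of 19 called by edgeR (4 and 4 at an unadjusted p under 0.05, and 0 and 1 by DESeq2), with Polr3g at 0.10 ± 0.08.

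In BRE over FL, where 55% of all genes were called, 1 RNase P and MRP protein rose and 5 of 11 fell. The 5 were Rpp38 (4.71 ± 1.03 CPM in BRE and 13.2 ± 1.45 CPM in FL libraries, SD, n = 6 and 2; log2 fold change -1.48), Rpp25l (-1.44), Rpp40 (-0.85), Rpp25 (-0.64) and Pop1 (-0.41), with edgeR adjusted p-values of 0.0095 or less. The gene that rose was Rpp14 (0.30, adjusted p = 0.00951). Of the 7SK and P-TEFb list 4 rose and 4 fell of 16. Hexim1 rose (81.2 ± 10.3 CPM in BRE and 46.3 ± 3.64 CPM in FL libraries, log2 fold change 0.81, adjusted p = 1.61e-04), as did Hnrnpa2b1 (0.73), Mepce (0.50) and the cyclin Ccnt2 (0.46), whereas Hexim2 (-0.86), Larp7 (-0.77, adjusted p = 1.9e-05), Aff4 (-0.53) and Ell2 (-0.52) fell. Cdk9 did not pass (-0.20 ± 0.09, adjusted p = 0.0894).

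Of 13 polymerase III subunits 4 rose and 3 fell in BRE over FL. The paralogs Polr3g and Polr3gl, alternative subunits of the enzyme, went in opposite directions: Polr3g had 68.0 ± 6.21 CPM in BRE and 101 ± 4.88 CPM in FL libraries (log2 fold change -0.56, edgeR adjusted p = 2.68e-04), and Polr3gl had 15.9 ± 3.18 CPM in BRE and 2.18 ± 0.604 CPM in FL libraries (2.87, adjusted p = 3.11e-05). Polr3d (0.74), Polr3a (0.51) and Polr3f (0.44) also rose, and Polr1d (-0.48) and Polr3e (-0.33) also fell. Of 19 factors 6 rose and 3 fell, led by Snapc2 (0.82), a subunit of the complex that binds small nuclear RNA promoters, and by Gtf3a (-0.45), the factor TFIIIA of 5S RNA genes. The called shares of these lists stood near or below the share of all genes.

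Other short structured RNAs were examined beside the 4. Of 38 listed, 32 were found and 23 were tested in the reporter comparison. 0 rose and 6 fell by edgeR (5 called by DESeq2), where 1.96% of all genes were called higher and 1.02% lower. Of the 23, 20 had a log2 fold change below 0, and the median was -0.37, against -0.0009 for all genes. The list was chosen with earlier results of these data known, so its values are a description and no independent support. The largest among the called changes were those of Snora73b, an H/ACA small nucleolar RNA (-0.98 ± 0.07, SE; adjusted p = 1.54e-05), the small Cajal body RNA Scarna6 (-0.90 ± 0.09, adjusted p = 2.95e-04), Rnu3a, a copy of the U3 RNA of ribosomal RNA processing (-0.65 ± 0.06, adjusted p = 1.7e-04), and Scarna10 (-0.54 ± 0.11, adjusted p = 0.02). Rnu3a belongs to a family of near-identical copies and its counts are uncertain. Without pair 1 the list had 9 calls lower, where 1110 of 15441 genes were called lower. Without pair 3 it had 4, where 68 of 15581 genes were called lower, against 157 of 15435 with all pairs.

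A wider class held the other genes under 500 bases annotated as snRNA, snoRNA, scaRNA, misc_RNA, ribozyme or sRNA. Further types of non-coding RNA were left out. Of 257 tested, 0 were called higher and 21 lower (8.17%) in BRE-positive over BRE-negative, against 1.02% of all genes called lower. Their median log2 fold change was -0.10, and 60.3% of them were below 0. Short protein-coding transcripts showed the same sign. Of 77 under 500 bases 0 were called higher and 18 lower, with a median of -0.11, while of 4444 over 8000 bases 200 were called higher and 21 lower, with a median of 0.04. The fold change therefore varied with transcript length over the whole comparison. With offsets that remove a trend on transcript length in each library, the 4 RNAs had log2 fold changes of -0.70 (Rn7sk), -0.90 (Rmrp), -0.64 (Rpph1) and -0.79 (Rprl3), and the number of genes called was 285, against 459 without the offsets.

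The other non-coding RNAs under 500 bases, of the same annotated types, were also summed. Their share was 0.263, 0.161 and 0.143% of counts in the BRE-positive libraries and 0.351, 0.190 and 0.173% in the BRE-negative libraries. The 4 RNAs together took 2.05, 0.677 and 0.903% of counts in the BRE-positive libraries and 2.57, 1.41 and 1.59% in the BRE-negative libraries. In the KO libraries the other short RNAs took 0.225, 0.233, 0.152 and 0.169%, and in the FL libraries 0.195 and 0.205%. The 4 RNAs took 2.00, 1.99, 1.01 and 1.22% of the KO and 1.92 and 1.94% of the FL counts, so KO libraries 3 and 4 were the low ones for both measures. Mitochondrial ribosomal RNA, whose removal depends on the kit, took 13.7 to 15.05% of counts in BRE-positive and 12.2 to 13.9% in BRE-negative libraries. How far these shares bear on the levels of the 4 RNAs was not tested.

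**Figure D3:**
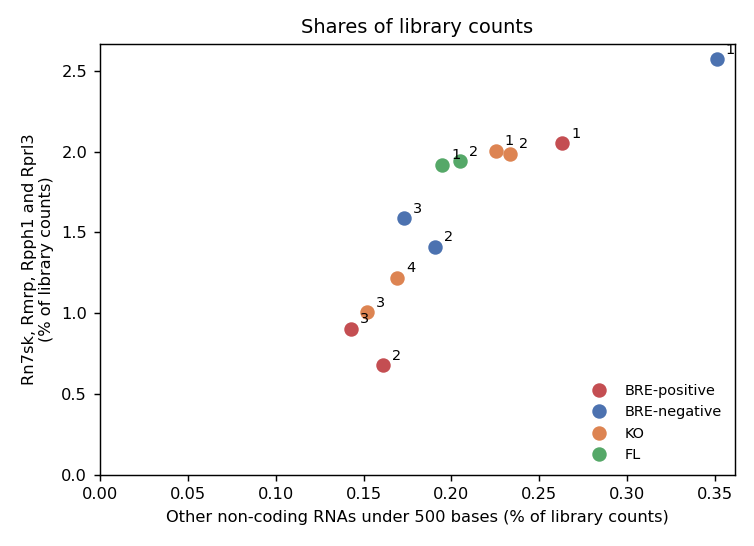
Share of library counts taken by the 4 RNAs (y axis, %) against that taken by other non-coding RNAs under 500 bases (x axis, %). There is 1 point per library, with replicate numbers. The x axis covers genes annotated as snRNA, snoRNA, scaRNA, misc_RNA, ribozyme or sRNA. BRE pair 1 lies highest on the x axis, and BRE-positive libraries 2 and 3 and KO library 3 lie lowest on both axes.

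In KO over FL none of 22 other short structured RNAs was called by edgeR (4 at an unadjusted p under 0.05, and 1 by DESeq2; median 0.10). In the wider class of non-coding RNAs under 500 bases, of the same annotated types, 5 of 265 tested were called higher and 0 lower. Their median was 0.25. Of all genes 1.85% were called higher and 3.18% lower. Snora73b (-0.21 ± 0.46, SE), Scarna6 (-0.25 ± 0.46) and Scarna10 (-0.12 ± 0.28) had wider SEs than Rn7sk, at 0.26, in this comparison, and that of Scarna10 was narrower than that of Rmrp, at 0.37. In BRE over FL 55% of all genes were called. Of 23 other short structured RNAs 3 were called higher (Rprl2, which passed the filter through the BRE libraries, Rnu1a1 at 1.52 and Rnu73b at 0.99). The 3 that fell were the Y RNA Rny3 (-1.17), the telomerase RNA Terc (-0.38) and Scarna13 (-0.28).

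Lists for the enzymes' substrates and for other cell types complete the reporter comparison, where 1.96% of all genes were called higher and 1.02% lower. Of 20 ribosomal RNA processing genes 0 rose and 2 fell, the methyltransferase Fbl (-0.29, edgeR adjusted p = 0.0143) and the exosome subunit Exosc2 (-0.22, adjusted p = 0.0397), and this list had 5 calls lower without pair 1, 1 without pair 2 and 0 without pair 3. Of 10 tRNA end processing genes edgeR called 0 (2 at an unadjusted p under 0.05, and 0 by DESeq2). Of 10 mitochondrial transcripts 6 rose and 0 fell, with a median of 0.31. Of 14 feeder fibroblast markers 0 rose and 4 fell, with summed levels of 83.4 to 180 CPM in BRE-positive and 119 to 211 CPM in BRE-negative libraries and none at 0 in all libraries. Of 9 ES cell markers and of 6 endoderm markers edgeR called 0 (0 and 2 at an unadjusted p under 0.05, and 0 and 0 by DESeq2), and the endoderm markers summed to 7.25 to 16.9 CPM in BRE-positive and 8.86 to 18.3 CPM in BRE-negative libraries. Without pair 1, 3 ES cell markers, 1 tRNA end processing gene and 5 feeder markers were called lower, and without pair 2 the feeder markers called lower were 7. Of all genes, 1110 of 15441 were called lower without pair 1, 149 of 15517 without pair 2 and 68 of 15581 without pair 3. With all pairs it was 157 of 15435, so the list counts of these fits moved with the whole comparison. The part of feeder RNA in the lower levels of the 4 RNAs was not tested.

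The same lists were set beside the 5.03% of all genes called in KO over FL. Of 20 ribosomal RNA processing genes 1 was called higher (the nucleolar exonuclease Isg20l2, 0.30, edgeR adjusted p = 0.0438) and 0 lower. The tRNA end processing genes and mitochondrial transcripts had 0 of 10 and 0 of 9 called (1 and 4 at an unadjusted p under 0.05, and 0 and 1 by DESeq2). The feeder and endoderm markers had 0 of 7 and 0 of 6 called (2 and 2 at an unadjusted p under 0.05, and 0 and 0 by DESeq2). Feeder markers summed to 10.9 to 14.9 CPM in KO and 14.4 to 19.0 CPM in FL libraries, with Lum, Postn and S100a4 at 0 in all KO libraries. Of 8 ES cell markers 0 rose and Nanog fell (419 ± 13.1 CPM in KO and 637 ± 16.2 CPM in FL libraries, log2 fold change -0.60, edgeR adjusted p = 0.00613). In BRE over FL, where 55% of all genes were called, 4 rose and 6 fell of 20 ribosomal RNA processing genes, 1 rose and 4 fell of 10 tRNA end processing genes, 9 rose and 0 fell of 10 mitochondrial transcripts, 3 rose and 3 fell of 9 ES cell markers, and 4 rose and 0 fell of 6 endoderm markers.

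Across the 12 libraries, the genes whose log2 CPM followed each RNA most closely were found by Pearson correlation over 11557 genes. This is a description over libraries that share culture and collection time. For Rn7sk they were Scarna6 (r = 0.98), the gene listed as Mir1949 (0.97), Scarna10 (0.96) and Gm26448 (0.96), and for Rmrp they were Gm24336 (0.97), Mir1949 (0.96), Gm26448 (0.96) and Snora73b (0.96). All of these are annotated as small nucleolar or small Cajal body RNAs. For Rpph1 they were the histone genes Hist1h3b (0.95), Hist1h4f (0.94) and Hist1h2ad (0.93) and the gene ENSMUSG00000062808 (0.93). For Rprl3, which split the libraries by line and culture, they were Zfp629 (0.99), Rpsa-ps10 (0.99), Bhlhe41 (0.99) and Nod1 (0.99). Among the 4 RNAs, r was 0.94 for Rn7sk and Rmrp, 0.74 for Rn7sk and Rpph1 and 0.52 for Rmrp and Rpph1, and between -0.51 and 0.42 for Rprl3 with the other 3.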

How the data were processed

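Per the labels' protocols, total RNA from each of the 12 samples was column-purified, depleted of ribosomal RNA and made into stranded libraries. Per the submitters' processing notes, STAR 2.4.1d and featureCounts 1.4.6 were among the tools, beside DESeq2 1.6.3, CASAVA 1.8.2 and FastQC 0.11.3, and GRCm38.p4 and mm10 were the builds. No source used here gives the strand setting or the annotation release. The authors deposited raw counts for 39179 genes and a table of TPM, a normalised signal that was used as deposited. Its values equal (count + 1) per length, scaled in each library over 38310 unique genes.

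Levels are that TPM, or CPM with TMM-scaled totals. Library totals, 25862573 to 37319846, set the counting precision. Comparisons used the quasi-likelihood test of edgeR 4.0.16 under R 4.3.3, with TMM, the expression filter (minimum count 10, total 15) and a Benjamini-Hochberg adjusted p under 0.05. P-values measure the spread between these samples, which may be technical. SEs were derived from each fold change and its F value. The BRE fit had the pair as a block, since the series states paired collection. Deviations from the group mean correlated across genes within each BRE pair (0.702, 0.566 and 0.505). The KO fit had no block, and BRE over FL used all 12 libraries, also with no block. Alternatives used DESeq2 1.42.0, RLE scaling, no count filter, limma 3.58.1 on log2(TPM + 1) and log2(TPM + 0.1), length offsets, other blocks and left-out libraries. The edgeR test was tried on simulated counts. Coordinates, sequences and neighbours come from GENCODE M21 on GRCm38, 1-based.

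The 4 RNAs and the gene lists were chosen with earlier results of these data known. Named genes are the 4 RNAs, up to 4 called members per list and direction, 7 pathway genes in any case, neighbours within 2000 bases and the 4 closest genes by correlation. The values of 1 called list member are not reported here.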

Additional observations from a re-analysis of the deposited data

How the results depend on the processing

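For BRE-positive over BRE-negative, the log2 fold changes of the 4 RNAs stayed below 0 under all 11 alternatives, from -0.50 to -1.23. The RNAs were picked for their fall in this comparison, so the sign is no support. With no replicate block the estimates were -0.62 ± 0.42 (SE) for Rn7sk, -0.70 ± 0.56 for Rmrp, -0.57 ± 0.32 for Rpph1 and -0.78 ± 0.26 for Rprl3. The number of genes called was 459 in the reported fit and 200 to 2225 with 1 pair left out (2225 without pair 1 and 200 without pair 3). It was 1010 with no count filter, 285 with transcript length offsets and the replicate block, and 42 with limma on log2(TPM + 0.1). It was 0 with limma on log2(TPM + 1), with no replicate block and with all 12 libraries in 1 fit. At an unadjusted p under 0.05 these fits had, in that order, 4189 of 38310, 343 of 15435 and 516 of 17112 genes. The reported fit had 2817 of 15435. The other short structured RNAs called lower numbered 4 to 9 with 1 pair left out, an alternative added after the data had been seen.

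For KO over FL, Rn7sk, Rmrp and Rpph1 missed the threshold under every alternative. With the replicate block, in which KO replicates 3 and 4 had no FL partner, they were 0.14, 0.13 and 0.0405. Deviations of KO replicates 1 to 4 from their group mean correlated with those of FL replicate 1 at 0.247, 0.405, -0.392 and -0.340, and with opposite sign with FL replicate 2, whose deviations mirror them. Same numbers thus did not pair these libraries, and no block for parental line was fitted because the labels do not give the line. Genes called were 801 in the reported fit, 1508 with DESeq2, 360 with limma on log2(TPM + 1), 136 at a pseudocount of 0.1, 0 with the replicate block, and 0 to 857 with 1 library left out, where 0 arose without FL replicate 1 (142 without FL replicate 2, 236 without KO replicate 3 and 215 without KO replicate 4).

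For BRE over FL, the Rprl3 estimate ranged from 5.12 to 8.22 over the 20 alternatives. All of them draw on the same BRE and FL libraries, so they are no independent support. Most keep the filter on low counts, which Rprl3 passed through the BRE libraries. Rmrp, not called in the reported fit, missed the threshold in 5 of the 8 alternatives that kept all libraries in the fit. Among these was DESeq2 (-1.19, adjusted p = 0.111). Rmrp passed with no count filter (-1.21, edgeR adjusted p = 0.0121), with transcript length offsets (-1.26, adjusted p = 0.0343) and with the replicate block (-1.09, adjusted p = 0.0332). With 1 library left out it missed in 9 of 12 fits and ranged from -1.71 to -1.03. Rn7sk ranged from -0.77 to -0.30 and Rpph1 from -0.0175 (without BRE-positive replicate 1) to 0.36 in the same way. The cause of these changes was not tested. Genes called were 6844 to 9713 over the alternatives. Few counts limit Rprl3, Rprl2 and Rprl1 in the KO and FL libraries.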
